A study of Mus musculus with 3 samples.

Results

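The C1q and Apoe tumour macrophages are 796 of the 30209 cell barcodes in 3 droplet libraries of leukocytes sorted from mouse fibrosarcomas. They were chosen by their own counts of UMIs (unique molecular identifiers, which count each captured transcript once). A member lies outside the deposited table of type 1 conventional dendritic cells (cDC1s), has 1000 or more genes detected and under 10% of its UMIs on mitochondrial genes, and holds 10 or more UMIs of *C1qa*, *C1qb* and *C1qc* together and 5 or more of *Apoe*. It also holds 0 UMIs of each of *Ear2*, *Flt3*, *Xcr1*, *Ncr1*, *Cd3e* and *Mki67*. Levels of these genes describe the choice and are not findings, whereas *Ms4a7*, the last of the 5 markers given for these cells, took no part in it.

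The tumours were MCA205 LA-OVA fibrosarcomas, which carry a form of ovalbumin as a model antigen, injected into both flanks and taken on day 5. One library came from WT mice, 1 from *sGsn-/-* mice, which lack secreted gelsolin, and 1 from *sGsn-/- Clec9a-/-* mice, which also lack DNGR-1, a receptor for actin exposed by dead cells that secreted gelsolin can mask. Mice were 6 to 20 weeks old, the mutant strains had been backcrossed to C57BL/6J, and males and females of a genotype were pooled into its library. The sort took live CD45+ cells without CD88 or markers of erythroid cells (TER-119), B cells (B220), T cells (CD3e), NK cells (NK1.1) and granulocytes (Siglec-F, Ly6G), or Ly6D, with CD11c and MHCII, and with either CD135 and CD43 (pre-cDCs), XCR1 (cDC1s) or Sirpa (cDC2s). The sorted fractions were mixed in set proportions before loading, so shares of barcodes are not shares of the tumour, and macrophages outside the gate were not sampled. Values for the 3 libraries are always given in the order WT, *sGsn-/-* and *sGsn-/- Clec9a-/-*.

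C1q is the recognition molecule of the classical complement pathway and is assembled from A, B and C chains encoded by neighbouring genes. Macrophages and dendritic cells make much of the body's C1q, which binds immune complexes and dying cells and aids their uptake. Apolipoprotein E carries cholesterol out of macrophages that have taken up cell debris, and macrophages rich in both gene products have been described in many mouse and human tumours.

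After the filters on genes and mitochondrial UMIs, 26051 barcodes remained, of which 20378 lay outside the cDC1 table. The C1q condition left 4263 of these and the *Apoe* condition 1847, and all conditions of the rule left 796. The *Apoe* condition alone kept out 723 barcodes, the C1q condition alone 219 and the *Mki67* condition alone 210. At the thresholds, 3 members held 10 C1q UMIs and 1 barcode outside held 9, and 24 members held 5 *Apoe* UMIs and 11 barcodes outside held 4. The member with the fewest genes had 1028 and the nearest barcode outside 967, and the highest mitochondrial share among members was 9.56% against 10.4% for the nearest outside. With 1 UMI of a gene required to be at 0, and every other condition met, lay 38 barcodes for *Ear2*, 116 for *Flt3*, 15 for *Xcr1*, 7 for *Ncr1*, 2 for *Cd3e* and 75 for *Mki67*. Most members lay well inside the thresholds, with a median of 121 C1q UMIs (10th to 90th percentile 29 to 256) and 57 *Apoe* UMIs (10 to 250).

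The members numbered 433 (WT), 149 (*sGsn-/-*) and 214 (*sGsn-/- Clec9a-/-*), with 6667222, 2365092 and 2918635 UMIs in all. Their median depth was 15053, 15793 and 13450 UMIs per cell. The WT library gave the highest share of members among its barcodes, 3.39% (95% Clopper-Pearson interval 3.09 to 3.72), against 1.82% (1.54 to 2.14) and 2.31% (2.01 to 2.63). Of the filtered barcodes outside the cDC1 table, members made up 4.85% (4.41 to 5.31), 2.79% (2.37 to 3.27) and 3.5% (3.06 to 4). These intervals hold counting error alone, and with 1 library per genotype a difference between genotypes cannot be told apart from one between sorts. The libraries shared 26, 28 and 27 barcode sequences (WT with *sGsn-/-*, WT with *sGsn-/- Clec9a-/-*, and the mutants with each other), and 0 were members in both libraries of a pair. Scrublet, which scores barcodes by their likeness to simulated mixtures of 2 cells, placed 9 of the 796 members in the top 6% of its scores, taken per library.

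The genes targeted in the mice were read first. *Clec9a*, which encodes DNGR-1, gave 6, 1 and 0 UMIs in all members together, a level of 0.9, 0.423 and 0 CPM (UMIs of the gene per 1000000 UMIs of the class in a library). In the deposited cDC1s, which should express it, *Clec9a* stood at 168 (95% Poisson interval 164 to 173), 168 (163 to 174) and 0.0931 CPM (0.0113 to 0.336). The cells of the *sGsn-/- Clec9a-/-* library thus carried almost no *Clec9a* RNA, and the members carried almost none in any library. *Gsn*, which encodes gelsolin, was at 244 (232 to 256), 285 (264 to 308) and 248 CPM (230 to 266) in members and at 152, 169 and 167 in cDC1s. It was not lower in either mutant, and the counts do not separate transcripts of the secreted form from those of the cytoplasmic form.

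The label was checked on macrophage genes that the rule did not use. *Ms4a7*, a membrane protein of macrophages, was at 389, 280 and 344 CPM in members and at 0.979, 0.0849 and 0.792 in cDC1s. All 3 libraries of members were far above all 3 of cDC1s. The same held for *Csf1r*, the receptor for the macrophage growth factor M-CSF, at 427, 466 and 444 CPM in members against 7.77, 4.58 and 6.29. *Fcgr1*, the high-affinity receptor for IgG, stood at 187, 217 and 205 against 10.6, 11.8 and 12.7. *Adgre1*, which encodes F4/80, was at 108, 120 and 116 CPM, and *Mertk*, a receptor for dying cells that many tissue macrophages carry, at 16.2, 11.8 and 18.5. *Trem2*, a lipid receptor, was at 403, 392 and 408 and *Cx3cr1*, the fractalkine receptor, at 485, 566 and 540 CPM, with 2.26, 0.552 and 2.14 and 4.41, 2.33 and 3.26 in cDC1s. The levels of these genes in members and in the classes compared with them are shown in the plot of marker genes.

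To set cells of unequal depth side by side, each was thinned at random to 5000 UMIs, which kept 780 members and left out 16, and kept 5429 cDC1s and left out 377. *Csf1r* was then seen in 86.7% of members and 2.54% of cDC1s (98.7% and 6.27% at full depth, with median depths of 14786 and 13501 UMIs). *Fcgr1* was seen in 60.6% and 4.07% (85.6% and 7.66% unthinned) and *Ms4a7* in 46.4% and 0.276% (57.2% and 0.723%). Each of these genes was seen in a larger share of members than of cDC1s, and the part of free RNA in either share was not measured. Of the unthinned members 61.4%, 50.3% and 53.3% held a UMI of *Ms4a7* in the 3 libraries, and a cell without one may still express it. Thinned alike, it was seen in 50.2% of the cycling and 2.72% of the Ear2-rich cells described further on. *C5ar1*, which encodes CD88, was seen in 36.9% of members against 0.0921% of cDC1s (61.8% and 0.327% unthinned), at 131, 107 and 109 CPM, although cells with CD88 on the surface had been gated away. *Itgax*, which encodes CD11c and was gated for, was seen in 38.7% and 17.4% (69.8% and 34.3%). Whether members carried CD88 protein was not measured.

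Markers of other cells were read as well. Of 8 cDC1 markers 8 had a UMI in members, with a summed level of 67.6, 51.6 and 54.8 CPM against 1607, 1641 and 1455 in the cDC1s, and the one with the most UMIs was *Wdfy4* at 27.5 CPM. The 8 markers of cDC2s and pre-cDCs summed to 337, 373 and 300 CPM against 644, 665 and 608 in the cDC1s, and *Tnip3* made up 194 of the members' sum on average. The 8 NK cell markers summed to 13.6, 88.8 and 31.2 CPM, highest in the *sGsn-/-* library, where 60.7% of the *Gzma* UMIs came from 1 cell. *Gzma* was seen in 6.7%, 21.5% and 8.41% of members, and the NK cell markers of the cDC1s summed to 18.8, 54.7 and 27 CPM, highest in the same library. T cell markers summed to 3.45, 6.77 and 5.48 CPM with *Cd3g* and *Cd8a* at 0, and B and plasmacytoid cell markers to 13.2, 14.4 and 12.7 with *Cd79a* at 0. Neutrophil markers summed to 7.65, 8.46 and 8.91 CPM with *S100a9*, *Ly6g*, *Retnlg*, *Mmp9* and *G0s2* at 0. Markers of tumour or stroma summed to 2.85, 6.77 and 2.4 CPM (*Sparc* the highest at 0.778), those of endothelium to 6.9, 5.92 and 5.48 with *Plvap* and *Emcn* at 0, and those of mature dendritic cells to 34.9, 54.5 and 19.2 CPM. Of the 14 genes listed for tissue-resident macrophages 13 had a UMI in members and 4 were at 20 CPM or more. They summed to 502, 498 and 522 CPM against 51.3, 47.7 and 45 in cDC1s, with *Selenop*, which encodes a selenium carrier, the highest at 178. The platelet factor gene *Pf4* and the mannose receptor gene *Mrc1* were also among these 4, with levels given further on. Others on that list were lower: the haemoglobin receptor *Cd163* at 0.75, 2.11 and 1.71, the phosphatidylserine receptor *Timd4* at 0.45, 2.11 and 0 and the hyaluronan receptor *Lyve1* at 0.45, 0 and 0 CPM. The 18 monocyte genes, 9 of them at 20 CPM or more, summed to 6542, 6865 and 7078 CPM against 2246, 2320 and 2292 in cDC1s. Among them *Ccr2*, the receptor that draws monocytes into tissue, was at 776, 882 and 800 CPM.

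The 3 C1q genes lie side by side on the minus strand of chromosome 4, *C1qb* from 136880129 to 136886187, *C1qc* from 136889804 to 136893065 and *C1qa* from 136895917 to 136898803, whereas *Apoe* is on chromosome 7 and *Ms4a7* on chromosome 19. As a description of the choice, *C1qa* was at 3300, 3128 and 3719, *C1qb* at 3782, 3704 and 4243 and *C1qc* at 1815, 1605 and 1881 CPM in members, and *Apoe* at 6234, 6908 and 7359. The chains kept nearly fixed proportions across the libraries. *C1qa* gave 37.1%, 37.1% and 37.8% of the members' C1q UMIs, *C1qb* 42.5%, 43.9% and 43.1%, and *C1qc* 20.4%, 19% and 19.1%. A UMI of each of the 3 chains was present in 95.8%, 97.3% and 95.3% of members. In the Ear2-rich cells, which were not chosen on C1q, the *C1qb* share was higher in all 3 libraries, at 50.9%, 49.8% and 52.2%, and in the cDC1s, where few C1q UMIs fell, it was 46.2%, 49.9% and 50.5%.

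Since the chains are neighbours whose summed UMIs kept nearly fixed proportions between the member libraries, the sequences just before their starts are printed. RefSeq windows of 250 bases (GRCm38.p6) were searched on both strands for AGGAAG, known for PU.1 and other ETS factors, TGAGTCA, known for AP-1, TTGCAA, known for C/EBP, and TATAAA, the TATA box. The table holds 7 of the 8 genes looked up, all but *C1qa*. Of 32536 such windows, 29.6% hold AGGAAG, 4.45% TGAGTCA, 5.28% TTGCAA and 12.3% TATAAA. In the *C1qb* window, chr4:136886201-136886450 on the minus strand, capitals mark AGGAAG read on the other strand from -52 to -47, counted back from the RefSeq start. Of the *C1qc* window the 99 bases that lie before the GENCODE start as well, chr4:136893066-136893164 on the minus strand, hold AGGAAG on the other strand from -194 to -189 and as printed from -157 to -152. A match is a run of letters and not evidence that a factor binds there.
C1qb: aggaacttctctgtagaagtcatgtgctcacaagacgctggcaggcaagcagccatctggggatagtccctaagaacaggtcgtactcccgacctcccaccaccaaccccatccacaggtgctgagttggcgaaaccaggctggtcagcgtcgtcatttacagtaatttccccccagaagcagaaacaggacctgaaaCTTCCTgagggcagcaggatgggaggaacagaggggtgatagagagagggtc
C1qc: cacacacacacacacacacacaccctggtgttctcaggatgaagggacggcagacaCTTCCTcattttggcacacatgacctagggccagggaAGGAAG

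Complement has further components, receptors and regulators beside C1q. Of 18 such genes, the C1q chains included, 16 had a UMI in members. *C3*, the central component of the cascade, was at 12.9, 15.6 and 13.4 CPM in members, *C4b* at 0.75, 0 and 1.37 and *C2* at 0.3, 0 and 0. *Cfp*, which encodes properdin, the stabiliser of the alternative pathway, was at 335, 323 and 345, and *Cfb*, its factor B, at 26.5, 29.6 and 39.4. The anaphylatoxin receptor *C3ar1* was at 149, 166 and 173 against 1.65, 0.679 and 1.21 in cDC1s, and *Itgam*, a chain of complement receptor 3, at 263, 285 and 268 against 9.4, 7.55 and 8.94. For *C3ar1* and *Itgam* the levels differed between the 3 member libraries far less than between members and cDC1s. *Vsig4*, a complement receptor of resident macrophages, and *Serping1*, the C1 inhibitor, were at 0.

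Of 21 chemokine genes 20 had a UMI in members, and their summed level was 6575, 8054 and 7164 CPM against 1974, 2034 and 1868 in cDC1s. *Il1b*, which encodes the cytokine interleukin-1β, was at 3655, 4073 and 3366 CPM, and *Cxcl2*, a chemokine for neutrophils, at 3001, 4240 and 3204 against 38, 36.8 and 47.1 in cDC1s. *Cxcl16*, a ligand for CXCR6 on T cells, was at 478, 420 and 507 against 117, 156 and 127. In contrast, *Cxcl9*, which draws CXCR3+ T cells, was lower in members than in cDC1s, at 38.5, 43.1 and 24.7 against 129, 167 and 157 CPM, and the ranges did not overlap. *Tnf* was at 45.6, 73.6 and 54.5, *Il10* at 6.15, 11.4 and 12 and *Nos2*, the inducible nitric oxide synthase, at 0.6, 0 and 1.03. The genes of MHC class II, which the gate selected on as protein, and of costimulation together summed to 47329, 45576 and 42725 CPM, close to the 49778, 49437 and 50206 of the cDC1s. *Fth1*, the heavy chain of the iron store ferritin, was at 14163, 13287 and 13756 CPM against 2099, 2287 and 2151.

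Members differed from each other more in some of these genes than in others. *Ctss*, a lysosomal protease, was spread evenly, with the 10% of members that held most of it carrying 19.3% of its UMIs, close to *Csf1r* at 23.2%. For *Il1b*, seen in 94.8% of members, that top 10% carried 30.7%, for *Cxcl2* 45.8%, for *Ms4a7* 53.2% and for *Spp1*, which encodes osteopontin, 61.9%. Some genes came from few members. *Ccl7*, a monocyte chemokine, was seen in 23.6% of members with 88.4% of its UMIs in the top 10%, and the platelet factor gene *Pf4* in 31.4% with 79.6%. *Cxcl9* was seen in 3.89% of members, and *Cxcl10* in 17.1%, with 95.7% of its UMIs in the top 10%. *Apoe* itself varied widely above its threshold, with a 10th to 90th percentile of 677 to 18247 CPM per cell around a median of 4176.

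*Ear2* encodes an eosinophil-associated ribonuclease that some myeloid cells in tissue express. Cells with 5 or more *Ear2* UMIs and 0 of *Flt3*, *Xcr1*, *Ncr1*, *Cd3e* and *Mki67*, here called Ear2-rich, passed the same filters and had no condition on C1q or *Apoe*. They numbered 293, 73 and 190. Against them the members had more RNA of *Ms4a7*, *Cx3cr1* and *C5ar1*, of most Fc receptor genes tested and of 16 of 29 lysosome genes. They had less of *Mrc1*, of *Lpl* and of most stress and dissociation genes tested.

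The UMIs of each class were summed within each library, and 3 sums were set against 3 in edgeR's quasi-likelihood test (Benjamini-Hochberg) at a threshold of 0.05. Of 9554 genes tested, 4035 passed (42.2%), 1934 higher (20.2%) and 2101 lower in members (22.0%). With library sizes in place of TMM factors, which moved the median of all genes to -0.10, 1436 were higher and 2627 lower, so the share higher went from 47.9% to 35.3%. *Ms4a7* was at 19.6, 6.96 and 8.09 CPM in Ear2-rich cells, far below its level in members, a log2 fold change (± SE) of 4.75 ± 0.21, adjusted p = 4.8e-11 in edgeR's quasi-likelihood test (Benjamini-Hochberg) (higher in 3 of 3 libraries, and 5.41 without the WT library). *Cx3cr1* was at 77.1, 72.1 and 63.9 and *Trem2* at 51.8, 69.6 and 54.3 CPM in Ear2-rich cells, each lower than in any member library. *Cx3cr1* was 7.98-fold higher in members (adjusted p = 1.3e-12) and *Trem2* 7.61-fold (adjusted p = 2.9e-12) in edgeR's quasi-likelihood test (Benjamini-Hochberg), each in 3 of 3 libraries.

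Genes listed for macrophage identity, transcription factors included, were more often higher than lower in members. Of 20 such identity genes tested, 12 were higher and 6 lower, with a median log2 fold change of 0.62 where that of all genes was 0.00. Among them were *Csf1r* at 1.08 ± 0.07, *Adgre1* at 1.19 ± 0.09 and *Cd14*, the co-receptor for lipopolysaccharide, at 1.57 ± 0.07. Of 5 resident macrophage genes tested 2 were higher and 3 lower (median -1.88). The 14 genes of that list summed to 502, 498 and 522 CPM in members against 817, 933 and 800 in Ear2-rich cells. Of 6 Fc receptor genes 5 were higher and 1, *Fcrls*, lower (median 0.44), with *Fcgr1* at 2.08 ± 0.11. Complement receptor genes went both ways. *C5ar1* was at 14.8, 22.8 and 19 CPM in Ear2-rich cells, below each member library, with a log2 fold change of 2.83 ± 0.14, adjusted p = 1.4e-10 in edgeR's quasi-likelihood test (Benjamini-Hochberg) (3 of 3 libraries). *C3ar1* rose by 1.54 ± 0.13, while *Itgam* fell by 0.57, *C4b* by 3.14 and *Cfp* by 0.77 on the log2 scale. Of 10 complement genes 5 were higher and 3 lower (median 0.32).

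Lysosome genes, proteases among them, were more often higher than lower in members. *Lgmn*, which encodes legumain, was at 667, 563 and 689 CPM in members and at 123, 149 and 130 in Ear2-rich cells, without overlap. The log2 fold change was 2.38 ± 0.10, adjusted p = 2.6e-11 in edgeR's quasi-likelihood test (Benjamini-Hochberg), higher in 3 of 3 libraries, and that of *Ctsl* (cathepsin L) was 2.27 ± 0.11. Of 29 lysosome genes 16 were higher and 4 lower (median 0.33), and *Psap*, the precursor of the saposins, was lower at -1.19 ± 0.08. Without the WT library 14 were higher and 4 lower, and with library sizes in place of TMM factors 14 were higher and 5 lower. Of 12 iron and haem genes 5 were higher and 1 lower (median 0.14), led by *Fth1* at 1.42 ± 0.08. The number lower was 2 without the WT library and with the library as a block. It was also 2 with library sizes in place of TMM factors, with no filter on low counts and with 30 or more C1q UMIs. Of 18 genes for uptake of dead cells and scavenging 11 were higher and 5 lower (median 0.62), among them the scavenger receptor genes *Msr1* at 3.21 ± 0.13 and *Stab1* at 3.07 ± 0.22.

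Chemokines divided by gene. The inflammatory chemokine genes *Ccl3* and *Ccl4* were higher in members, by 2.41 ± 0.14 and 2.34 ± 0.09, as were *Cxcl16* by 2.24 ± 0.10 and *Il1b* by 1.23 ± 0.08. *Ccl6* was at 212, 182 and 243 CPM in members and at 1853, 2001 and 1948 in Ear2-rich cells, a log2 fold change of -3.08 ± 0.10. *Ccl17*, a ligand of CCR4, had a log2 fold change of -2.07 ± 0.20. Of 19 chemokine genes 8 were higher and 4 lower (median 0.11), although the summed level of the 21 genes listed was lower in members, at 6575, 8054 and 7164 CPM against 9079, 8926 and 8246 in Ear2-rich cells. Of 17 cytokine and effector genes 11 were higher and 3 lower (median 0.47).

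Other genes were higher in Ear2-rich cells. *Mrc1*, the mannose receptor, was at 151, 149 and 158 CPM in members and at 579, 676 and 556 in Ear2-rich cells, and *Lpl*, lipoprotein lipase, at 36.6, 57.5 and 61.7 against 709, 885 and 655. The classes did not overlap for either gene. The log2 fold changes were -1.88 ± 0.08, adjusted p = 5.8e-11 and -3.80 ± 0.16, adjusted p = 2.5e-11 in edgeR's quasi-likelihood test (Benjamini-Hochberg), lower in 3 of 3 libraries. *Retnla*, a secreted protein of alternatively activated macrophages, was at 140, 1.69 and 15.1 CPM in members, where 46.1% of the WT UMIs came from 1 cell, and at 2209, 2185 and 2873 in Ear2-rich cells. *Gfra2*, a receptor for neurturin, was at 0.45, 0.423 and 1.37 against 59.6, 67 and 53.5 CPM, a log2 fold change of -6.29 ± 0.25 (-6.93 without the *sGsn-/- Clec9a-/-* library). *Cd209a*, a lectin of cDC2s and monocyte-derived cells, had a log2 fold change of -3.90 ± 0.15. The cDC2 and pre-cDC markers had 0 of 8 genes higher and 5 lower (median -0.75). Of 19 lipid genes 9 were higher and 5 lower (median 0.36), so *Lpl* was not typical of its list.

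Stress and dissociation genes, which respond to handling as well as to signals, were mostly lower in members. Of 14 tested 0 were higher and 11 lower, with a median of -0.70. *Dusp1*, a phosphatase induced within minutes of a signal, was at 436, 587 and 594 CPM in members and 1450, 1370 and 1383 in Ear2-rich cells, a log2 fold change of -1.28 ± 0.10, adjusted p = 2.2e-08 in edgeR's quasi-likelihood test (Benjamini-Hochberg) (lower in 3 of 3 libraries). The classes passed through the same sorts, and whether handling acted on them alike was not tested. Ear2-rich cells were also deeper, with a median of 19559 UMIs against 14786, and at 5000 UMIs per cell 2391 genes passed.

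Members were chosen to hold no *Mki67*, so cells that met every other condition but held 1 or more *Mki67* UMIs, here called cycling, were set beside them. They numbered 122, 38 and 50. Cell cycle genes set them apart, which the choice on *Mki67* made likely. Beside this, members had more RNA of *Fth1*, *Lgals3*, *Thbs1* and *Vegfa* and of some monocyte genes, and less of *Pf4*, of some other chemokine genes and of the Fc receptor-like gene *Fcrls*.

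Of 9043 genes tested in edgeR's quasi-likelihood test (Benjamini-Hochberg), 1128 passed (12.5%), 390 higher (4.31%) and 738 lower in members (8.16%). DESeq2 gave 220 higher and 565 lower, and edgeR with no filter on low counts 619 higher and 843 lower. With library sizes in place of TMM factors, which moved the median of all genes from 0.01 to -0.10, 177 were higher and 982 lower, so the share higher went from 34.6% to 15.3%. Without the WT or the *sGsn-/-* library 651 and 719 genes passed, with 134 and 171 higher, and without the *sGsn-/- Clec9a-/-* library 254 were higher. Of 20 cell cycle genes tested besides *Mki67* 20 were lower (median -2.48), among them *Top2a*, a topoisomerase of dividing cells, at 8.1, 10.6 and 6.85 against 276, 423 and 371 CPM.

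*Fth1* was at 14163, 13287 and 13756 CPM in members and 9338, 9617 and 9006 in cycling cells, and *Lgals3*, which encodes galectin-3, at 1378, 1349 and 1659 against 831, 827 and 910. Each member library was above each cycling one. The log2 fold changes were 0.66 ± 0.07, adjusted p = 1.5e-06 and 0.87 ± 0.10, adjusted p = 6.1e-06 in edgeR's quasi-likelihood test (Benjamini-Hochberg), higher in 3 of 3 libraries. *Thbs1* (thrombospondin 1) was at 351, 334 and 308 against 175, 126 and 86.2 CPM and *Vegfa*, the endothelial growth factor, at 107, 127 and 87.7 against 52.2, 63.4 and 24.1, with log2 fold changes of 1.41 ± 0.16 and 1.29 ± 0.20. They were the 2 higher of 15 cytokine and effector genes, of which 1, *Il1a*, was lower (3 higher and 1 lower without the WT library, 3 higher and 0 lower without the *sGsn-/- Clec9a-/-* library). Of 14 monocyte genes 6 were higher, *Thbs1* among them, and 1 lower (median 0.50), or 2 of 13 higher without the WT library and 4 without the *sGsn-/-* library. Also higher were *Ly6c2* at 1.33 ± 0.34 and *Plac8* at 1.20 ± 0.25, neither of which passed in DESeq2 or without the WT or the *sGsn-/-* library. Of 19 lipid genes tested 10 were higher and 0 lower (median 0.45), or 6 higher without the *sGsn-/-* library, including *Apoc2*, a cofactor of lipoprotein lipase, at 1.12 ± 0.16 and the lipid droplet gene *Plin2* at 0.60 ± 0.11. Of 22 hypoxia and glycolysis genes 17 were higher and 0 lower (median 0.49), a count that was 5 of 21 without the WT library, 10 without the *sGsn-/- Clec9a-/-* library and 10 with library sizes in place of TMM factors. *Bnip3*, which directs mitochondria to autophagy, at 1.08 ± 0.14, and the cytokine gene *Mif*, at 0.57 ± 0.10, passed in each of these.

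Among receptors, the inhibitory Fc receptor gene *Fcgr2b* was at 603, 575 and 587 CPM in members and 401, 375 and 383 in cycling cells, a log2 fold change of 0.71 ± 0.08, adjusted p = 9.7e-06 in edgeR's quasi-likelihood test (Benjamini-Hochberg) (higher in 3 of 3 libraries). Of 21 identity genes 7 were higher and 0 lower (median 0.28), with 3 of 19 higher without the WT library, 1 lower without the *sGsn-/- Clec9a-/-* library, and 11 higher and 1 lower with the library as a block. Lower in members were *Fcrls*, at 108, 86.7 and 75.4 against 348, 191 and 199 CPM, and *Pf4*, at 145, 113 and 132 against 345, 184 and 276, in every library. Their log2 fold changes were -1.37 ± 0.18, adjusted p = 4.9e-05 and -0.97 ± 0.16, adjusted p = 5.2e-04 in edgeR's quasi-likelihood test (Benjamini-Hochberg), lower in 3 of 3 libraries. *Ccl2*, a ligand of CCR2, was lower in members, at -0.59 ± 0.09. Of 18 chemokine genes 0 were higher and 7 lower in edgeR (median -0.41), with 0 higher and 4 lower in DESeq2 and 11 at an unadjusted p under 0.05. Without the WT library 1 of 17 was higher and 5 lower, without the *sGsn-/- Clec9a-/-* library 2 were higher and 5 lower, and with the library as a block 3 were higher and 10 lower. Of 9 complement genes and 11 MHC class I genes, 0 passed in edgeR, where 12.5% of all genes tested did, and 0 in DESeq2. Their medians were 0.19 and 0.16, and 2 and 4 had an unadjusted p under 0.05. Without the *sGsn-/- Clec9a-/-* library 1 of each was higher (1 and 2 with the library as a block). Cycling cells had a median depth of 19197 UMIs against 14786, and at 5000 UMIs per cell 497 genes passed.

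*Mrc1* encodes the mannose receptor, which takes up glycoproteins and is used to divide tumour macrophages into states. It was seen in 62.7% of members (40.1% at 5000 UMIs, against 0.921% of cDC1s), so members themselves were divided into those with 3 or more *Mrc1* UMIs (143, 54 and 68 cells) and those with 0 (167, 47 and 83). The Mrc1-high members had more RNA of *Pf4*, *Fcrls* and *Selenop* and of *Lpl* and *Ccl6*. They had less of some hypoxia and interferon-stimulated genes and of 2 of 11 monocyte genes tested, *Ly6c2* among them.

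Of 7037 genes tested in edgeR's quasi-likelihood test (Benjamini-Hochberg), 114 passed (1.62%), 54 higher (0.767%) and 60 lower in Mrc1-high members (0.853%). Without the WT, *sGsn-/-* and *sGsn-/- Clec9a-/-* library in turn 29, 50 and 42 genes passed (11, 17 and 13 higher), and DESeq2 gave 68 of 2671 genes, 23 higher and 45 lower, a share higher of 33.8%. With library sizes in place of TMM factors, which moved the median of all genes from 0.00 to 0.10, 83 were higher and 37 lower, so the share higher went from 47.4% to 69.2%. *Pf4* was at 292, 126 and 179 CPM in Mrc1-high and at 43.3, 65.3 and 43.7 in Mrc1-zero members, and *Fcrls* at 211, 115 and 124 against 20.8, 47.1 and 46.7. High and zero members did not overlap for either gene. *Pf4* was 4-fold higher (adjusted p = 4.6e-05) and *Fcrls* 4.31-fold (adjusted p = 7.5e-05) in edgeR's quasi-likelihood test (Benjamini-Hochberg), each in 3 of 3 libraries. Without the WT library the log2 fold change of *Fcrls* went from 2.11 to 1.28, still past the threshold. *Selenop* was at 220, 238 and 224 against 99.4, 95.7 and 137 CPM and *Ccl6* at 320, 264 and 338 against 137, 129 and 155, with log2 fold changes of 0.95 ± 0.14 and 1.04 ± 0.12. *Lpl*, at 1.88 ± 0.27, was higher as well. It was seen in 13.8% of members, with 94.5% of its UMIs in the top 10% of cells and 35.6% of those in the *sGsn-/- Clec9a-/-* library in 1 cell. Of the 3 genes tested from the resident macrophage list, 2 were higher (*Pf4* and *Selenop*) and 0 lower. *Cd209a* had a log2 fold change of 1.80 ± 0.40 and *Mgl2*, another lectin gene, of 1.43 ± 0.22. Without the WT library these were 2.98 and 2.04. *Cd209a* was seen in 10.4% of members, with 98.4% of its UMIs in the top 10% of cells and 72.1% of those in the *sGsn-/-* library in 1 cell. It fell short of the threshold in edgeR's quasi-likelihood test (Benjamini-Hochberg) without the *sGsn-/-* library (adjusted p = 1.8e-01) and without the *sGsn-/- Clec9a-/-* library (adjusted p = 1.9e-01), and *Mgl2* in DESeq2 and with classes formed after thinning. Of 6 cDC2 and pre-cDC markers tested, *Cd209a* alone passed in edgeR, 0 passed in DESeq2 and 2 had an unadjusted p under 0.05. *Fcrls*, *Lpl*, *Ccl6*, *Mgl2* and *Cd209a* were also higher in Ear2-rich cells than in members, whereas *Pf4* and *Selenop* were higher in members than in Ear2-rich cells.

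In the other direction, *Ccl5*, a T cell and monocyte chemokine, was at 12.6, 16.6 and 36.4 CPM in Mrc1-high and at 136, 269 and 268 in Mrc1-zero members. *Ly6c2*, a surface protein of recently arrived monocytes, was at 26.8, 37.3 and 43.6 against 116, 128 and 214, and *Ly6a*, an interferon-induced surface protein, at 70.2, 91.2 and 25.8 against 209, 281 and 245. For all 3 genes each Mrc1-high library was below each Mrc1-zero one. The log2 fold changes were -3.51 ± 0.30, adjusted p = 2.6e-06, -2.23 ± 0.23, adjusted p = 1.7e-05 and -2.03 ± 0.23, adjusted p = 3.0e-05 in edgeR's quasi-likelihood test (Benjamini-Hochberg), lower in 3 of 3 libraries. *Ccl5* was seen in 17.7% of members, with 94.4% of its UMIs in the top 10% of cells. It was seen in 15 of 143, 16 of 54 and 13 of 68 Mrc1-high members and in 29 of 167, 11 of 47 and 21 of 83 Mrc1-zero members. The share of cells was thus not lower in Mrc1-high members of the *sGsn-/-* library. Single cells held 31.5%, 57.1% and 33% of the *Ccl5* UMIs of the Mrc1-zero members. Of 11 monocyte genes tested 2 were lower, *Ly6c2* and *Chil3*, and 0 higher (median -0.04), and 1 passed in DESeq2. Of 10 type I interferon-stimulated genes tested 4 were lower and 0 higher (median -0.95), a count that was 0 without the WT library. *H2-Q7*, an MHC class Ib gene nearly identical to *H2-Q6*, was lower in Mrc1-high members, at -1.57 ± 0.17.

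Of 22 hypoxia and glycolysis genes tested 12 were lower in Mrc1-high members and 0 higher (median -0.52), or 7 without the WT library and 7 of 21 when the classes were formed after thinning to 5000 UMIs. *Bnip3* was at 51.6, 30 and 44.5 CPM in Mrc1-high and at 115, 128 and 132 in Mrc1-zero members, and *Ero1l*, an oxidase of the endoplasmic reticulum that is induced in hypoxia, at 39.8, 34.2 and 23.1 against 90.1, 62.3 and 98.5. Neither gene's classes overlapped. The log2 fold changes were -1.58 ± 0.16, adjusted p = 1.5e-05 and -1.44 ± 0.19, adjusted p = 2.0e-04 in edgeR's quasi-likelihood test (Benjamini-Hochberg), lower in 3 of 3 libraries, and those of the glycolytic genes *Tpi1* and *Pgk1* were -0.86 ± 0.11 and -0.76 ± 0.12. Of all genes tested between these classes 1.62% passed in edgeR, and a count of 0 in a short list is near that share. Of 13 genes of MHC class II and costimulation, 29 lysosome genes and 14 cytokine and effector genes, 0 passed in edgeR and 0 in DESeq2. Their medians were -0.11, 0.05 and -0.18, and 4, 3 and 4 had an unadjusted p under 0.05. The classes also differed in depth, with median UMIs of 16616, 17948 and 16050 in Mrc1-high and 13310, 13420 and 12156 in Mrc1-zero members, and a deeper cell is more likely to show 3 UMIs. With classes formed after thinning 33 genes passed.

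**Figure D1:**
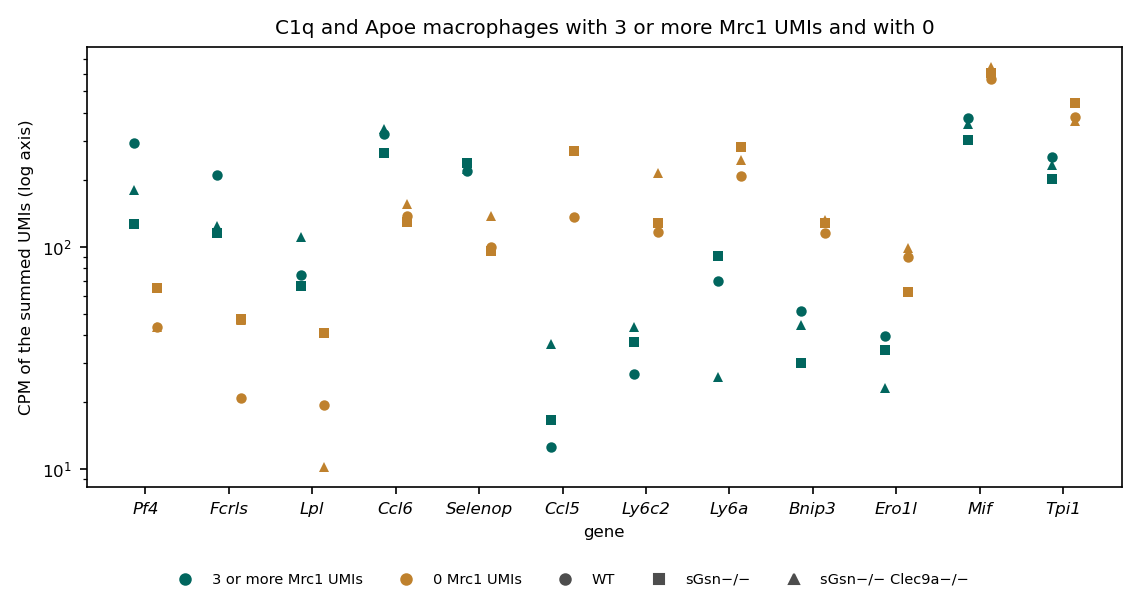
Levels of 12 genes in Mrc1-high and Mrc1-zero members. Each point is the CPM of the summed UMIs of a class in 1 library, on a log axis, with the libraries marked as circle (WT), square (sGsn−/−) and triangle (sGsn−/− Clec9a−/−).

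*Cxcl9* was also read cell by cell against *Mrc1* among members thinned to 5000 UMIs. A *Cxcl9* UMI was seen in 2 of 313 members with *Mrc1* (0.639%, 95% Clopper-Pearson interval 0.0775 to 2.29) and in 19 of 467 without it (4.07%, 2.47 to 6.28). By library it was seen in 1 of 162, 1 of 61 and 0 of 90 members with *Mrc1*, and in 11 of 266, 4 of 85 and 4 of 116 without. Thinned, the share was lower in members with *Mrc1* in all 3 libraries, from 21 cells in all. At full depth this did not hold in the WT library, as *Cxcl9* was seen in 6 of 143, 1 of 54 and 1 of 68 Mrc1-high members and in 6 of 167, 4 of 47 and 5 of 83 Mrc1-zero members. The summed *Cxcl9* UMIs stood at 37.3, 1.04 and 0.889 CPM in Mrc1-high and 63.3, 125 and 72.1 in Mrc1-zero members, a log2 fold change of -2.17 ± 0.46, adjusted p = 2.0e-02 in edgeR's quasi-likelihood test (Benjamini-Hochberg) (lower in 3 of 3 libraries). It fell short of the threshold in DESeq2, and in edgeR's quasi-likelihood test (Benjamini-Hochberg) without the *sGsn-/-* library (adjusted p = 1.4e-01) and without the *sGsn-/- Clec9a-/-* library (adjusted p = 7.1e-02), and the log2 fold change was -6.51 without the WT library, with 1 UMI left in each Mrc1-high sum. Single cells held 55.7%, 95.1% and 52.1% of the *Cxcl9* UMIs of the Mrc1-zero members. Thinned alike, Ear2-rich cells gave 1.81% (0.874 to 3.31) and cDC1s, some of which express the gene, 8.33% (7.6 to 9.09), at median depths of 19559 and 13501 UMIs. The part of free RNA in these few cells was not tested.

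Between genotypes the members' levels could only be set side by side, since each genotype is 1 library. Among 2628 genes with 50 CPM or more in WT or *sGsn-/-* members, the median size of the log2 ratio was 0.105, and 6 genes (0.228%) were at or past a ratio of 1 on the log2 scale, or 12 with cells thinned to 5000 UMIs. Between *sGsn-/- Clec9a-/-* and *sGsn-/-* members it was 0.12 over 2608 genes, with 8 (0.307%) at or past 1, or 15 thinned. Some large ratios came from single cells: the mast cell protease gene *Mcpt4* was at 57.9 CPM in *sGsn-/-* members from 1 cell, and *Fabp5*, a fatty acid carrier, had a log2 ratio of 1.88 with 73.2% of its UMIs there in 1 cell, and of 0.10 without the cell with its most UMIs in each library.

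*Cebpb*, a transcription factor of inflammatory macrophages, was at 734, 530 and 162 CPM, lowest in the *sGsn-/- Clec9a-/-* library, a log2 ratio of -1.70 to *sGsn-/-* members. The cDC1s of the same libraries showed a ratio of -1.68. The same parallel with cDC1s held for *Hspa1b*, a heat shock gene nearly identical to *Hspa1a*, at -0.85 between *sGsn-/-* and WT members and -1.05 in cDC1s. *Gm42418*, which overlaps *AY036118* on the opposite strand, was higher in *sGsn-/- Clec9a-/-* than *sGsn-/-* members by 0.80 and in cDC1s by 0.94. For *Egr1*, *Ifitm1* and *Cxcl10* the cDC1s did not show a ratio of that size and sign. *Egr1*, an immediate early gene, was at 258, 464 and 374 CPM in members, a log2 ratio of 0.84 between *sGsn-/-* and WT, against -0.14 in cDC1s. *Ifitm1*, an interferon-induced membrane protein, was at 659, 371 and 441 CPM, a ratio of -0.83 against 0.09 in cDC1s. *Cxcl10* was at 137, 135 and 61.3 CPM, a log2 ratio of -1.14 between *sGsn-/- Clec9a-/-* and *sGsn-/-* members (-0.67 with cells thinned to 5000 UMIs), where cDC1s gave 0.50. *Mmp12*, the macrophage elastase, was at 151, 49.5 and 91.5 CPM, with -1.60 between *sGsn-/-* and WT, and in cDC1s, at 0.765 and 0.637 CPM in these libraries, it was too low to set beside this. Genotype, pool of mice and library cannot be told apart in any of these values.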

How the data were processed

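The values are UMI counts per gene and barcode, deposited by the authors as filtered matrices of Cell Ranger 6.0.1 (mm10, 32285 genes), 1 per library, with a deposited table of the barcodes the authors kept as cDC1s, made with Seurat. A further condition of the rule, which the Ear2-rich and cycling cells also met, and the comparison made on it are not reported here. Members and lists of genes were chosen with earlier results of these data known. UMIs of each class were summed per library and compared in edgeR 4.0.16 (filterByExpr, TMM factors, quasi-likelihood test, Benjamini-Hochberg adjustment, threshold 0.05). The p-values treat the 3 libraries, which differ in genotype, as replicates, and speak of spread between these libraries. Depth was 176578136, 109270958 and 113411930 UMIs in 12763, 8173 and 9273 barcodes, and intervals are 95% Poisson (levels) and Clopper-Pearson (shares). Genotype ratios used 0.5 CPM added to both levels.

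Both classes of a comparison came from the same pool of mice, which pairs them by library. Over each comparison's genes, the classes' deviations from their means correlated by 0.0243 to 0.0803, each sum best with that of its own library.

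Genes named are those of the lists, the 20 with the highest level in members (mitochondrial and ribosomal genes left out), the 10 largest and 10 smallest fold changes of each comparison past the threshold with 1 direction in 3 libraries and 20 CPM or more, and the 10 largest and smallest genotype ratios at 50 CPM or more, genes of the rule left out. The sums were also tested with the library as a block, DESeq2 1.42.0, library sizes alone, no filter on low counts, without 1 library, without the top 6% of Scrublet scores (scanpy 1.11.5), thinned to 5000 UMIs, and with 30 or more C1q UMIs. The last was not run for the Mrc1 classes, which were instead also formed after thinning. Shares were retaken with under 5% mitochondrial UMIs and 2000 genes. Leaving out the member with the most UMIs of a gene was chosen after seeing the data. Python 3.11.15 (numpy 2.4.6, scipy 1.17.1, pandas 2.3.3), R 4.3.3 and GENCODE M21 positions (GRCm38) were used.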

Additional observations from a re-analysis of the deposited data

How the results depend on the processing

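Counts of genes past the threshold kept within 1.5 times except as follows. Thinning to 5000 UMIs gave 2391 against Ear2-rich cells (4035) and 497 against cycling cells (1128), where leaving out 1 library gave 651 to 862. For Mrc1-high against Mrc1-zero members (114), DESeq2 gave 68, no filter 244, thinning 73, classes formed after thinning 33 and leaving out 1 library 29 to 50. Thinning and leaving out a library lower the number of UMIs or sums tested. The fit with the replicate block, that is the library, gave 4264, 1418 and 168 genes and moved none of these counts past 1.5 times.

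With 30 or more C1q UMIs the WT share of members was 3.06% of barcodes and 4.38% of filtered barcodes outside the cDC1 table, and the *sGsn-/- Clec9a-/-* share of the latter 3.04%; with under 5% mitochondrial UMIs and 2000 genes the *sGsn-/-* share was 3.31%. Thinning raised the genes at or past a log2 ratio of 1 to 12 between *sGsn-/-* and WT members and to 15 between the mutants. The direction turned for *Cxcl10*, to -1.14 between Mrc1 classes formed after thinning, and for *Hist1h2ap*, to -0.52 between *sGsn-/-* and WT members without the member with most of its UMIs. The cause was not tested. Of the other values, 7651 were counted as unchanged, 424 fell short of the threshold, 265 passed it and 35 moved. These values include genotype ratios, which have no threshold. A gene short of the threshold both times could count as unchanged without keeping its direction. Among listed or named genes past the threshold, 149 of 201, 56 of 115 and 16 of 48 passed under every alternative that gave them an adjusted p. The comparisons are in the order above, and a gene left untested in an alternative was not counted as lost there. Of the Mrc1-high and Mrc1-zero classes, the Mrc1-zero members of the *sGsn-/-* library held the fewest UMIs, 658136 in 47 cells.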
